A study of Mus musculus with 3 samples.

Results

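The DnaJ genes encode the J-domain co-chaperones of HSP70, and 45 of them were measured in the brain, liver and testis of the mouse. They were taken by name from the gene tables, as every protein-coding gene whose symbol starts with Dnaja, Dnajb or Dnajc followed by a digit. They are 4 class A, 13 class B and 28 class C genes, out of 20147 protein-coding genes and 36809 gene identifiers found in all 3 tables. The series sequenced polyadenylated RNA from organs of male C57BL/6 mice aged 11 weeks. Brain, liver and whole testis each gave 1 strand-specific library, and the labels name no genotype or treatment. Levels are the deposited FPKM values, that is fragments per length of transcript and per sequenced fragment, each with the lower and upper bound of the authors. With 1 library per tissue there is no replicate check, so each difference is described by its size, without a p-value.

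A J domain is a short helical fold with a loop of histidine, proline and aspartate, through which the protein stimulates the ATPase of an HSP70 partner. HSP70 then closes on its client, and a nucleotide exchange factor releases it. Class A and class B proteins bind unfolded clients themselves and differ by a zinc-binding region in class A. Class C holds proteins that share little beside the J domain, and most of them place HSP70 at one site, such as the ER, the mitochondrial import channel, the ribosome or a clathrin-coated vesicle. In the testis, several class B genes and the cysteine string protein paralogs are known from germ cells, and a DnaJ protein is part of the radial spoke of the sperm flagellum.

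The libraries carried the markers of their organs. All 5 neuronal and all 5 glial markers were higher in brain than in testis, and all 5 hepatocyte markers were higher in liver than in testis. Against brain, 4 of the 5 hepatocyte markers were higher in liver by the 4-fold rule given below. The exception was Ttr, at 1625 FPKM in brain and 6286 in liver. The 8 markers of haploid germ cells summed to 44745 FPKM in testis and to 34.5 in brain, with 0.265 in liver, where 4 of the 8 were listed at 0. Among them the transition protein gene Tnp1 stood at 13.5 FPKM in brain. The source of these brain values was not tested. Interval widths implied 31.8, 86.3 and 40.9 M fragments for brain, liver and testis. Members at 1 FPKM or more had intervals whose upper arm was, at the median, 5.98% of the value in the brain library, 5.56% in the liver library and 3.29% in the testis library. These intervals cover estimation within a library only. In whole organs, fewer cells of a type and less RNA per cell cannot be told apart.

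Most DnaJ genes were present in all 3 organs. At 1 FPKM or more, 39 of the 45 were detected in brain, 36 in liver and 43 in testis, where the shares among all protein-coding genes were 58.5%, 43.9% and 57.9%. In all 3 libraries together 35 members reached that level, which was 77.8% of them against 35.6% of protein-coding genes. The highest level of a member was in testis for 26 genes, in brain for 12 and in liver for 7. Among protein-coding genes at 1 FPKM in some library these shares were 43.8%, 41.0% and 15.2%, against 57.8%, 26.7% and 15.6% of the members. Scaled to the protein-coding sum, 22 members were highest in testis, 19 in brain and 4 in liver, and scaled to the total FPKM the counts were 30, 2 and 13.

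**Figure D1:**
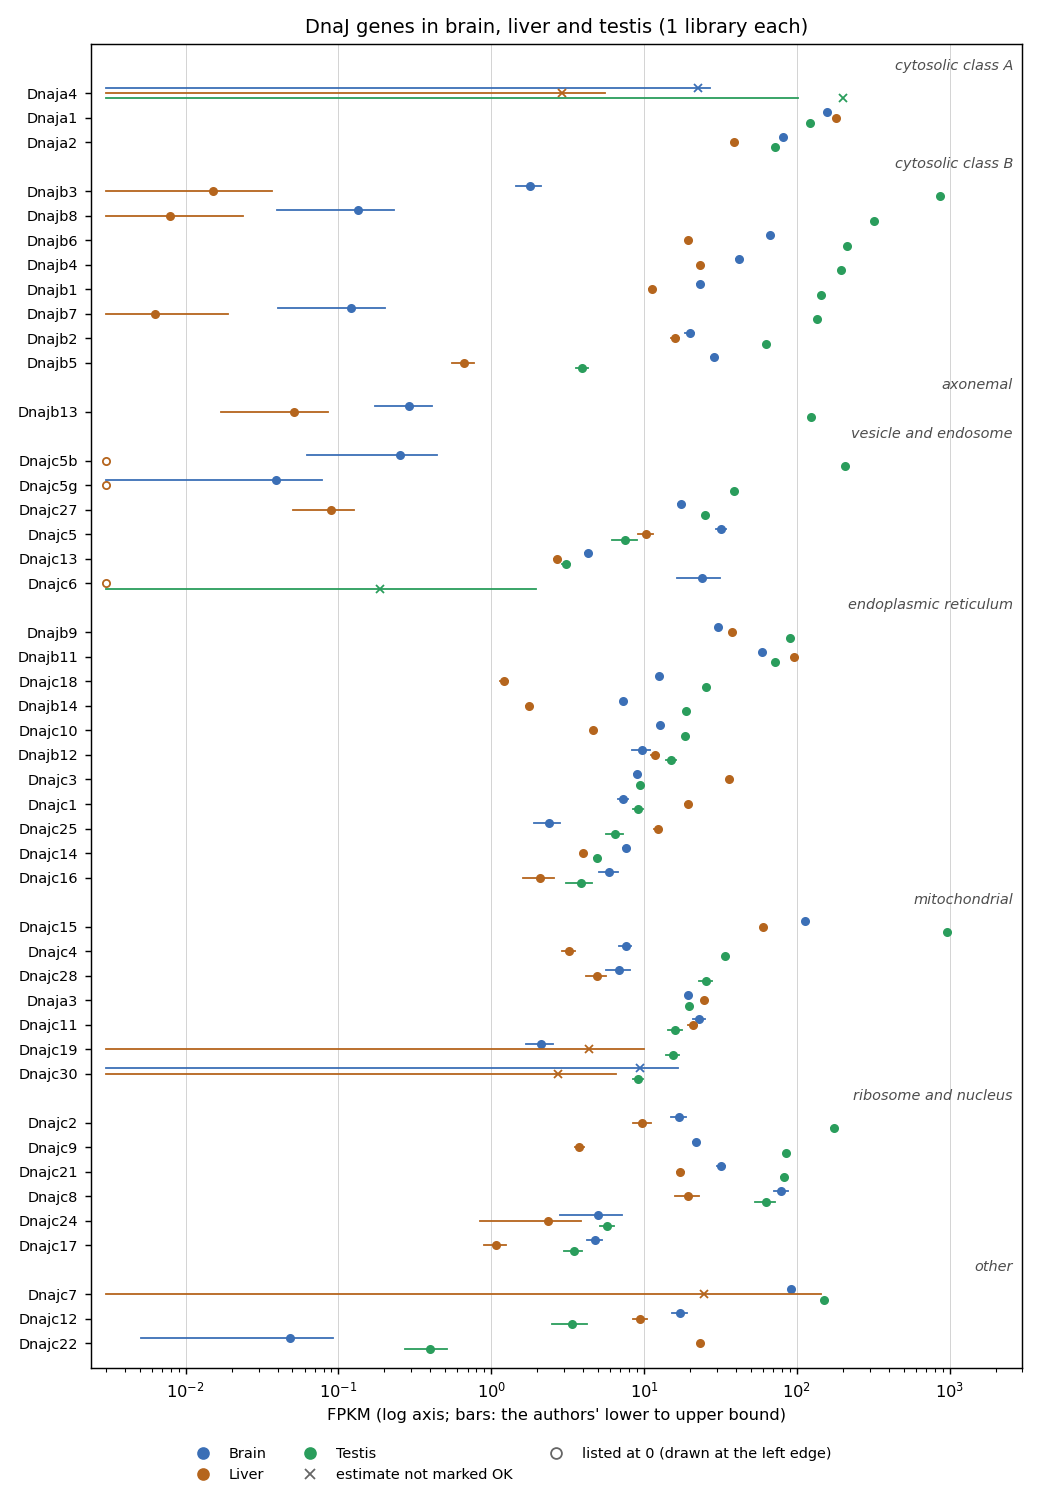
FPKM of the 45 DnaJ genes in brain, liver and testis on a log axis, by role group, with bars from the authors' lower to upper bound. Crosses mark estimates not marked OK, and open circles at the left edge mark values listed at 0. The class B genes Dnajb3, Dnajb7 and Dnajb8 lie at 135 FPKM or more in testis and below 2 FPKM in brain and liver, while the 3 values of Dnaja1 and of Dnaja2 each lie within 2.08-fold.

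The summed level of the family was 1137 FPKM in brain and 767 in liver, with 4667 in testis. That was 0.329%, 0.125% and 0.821% of the protein-coding FPKM of each library. The testis sum was 4.10 times the brain sum and 6.09 times the liver sum. These ratios depended on scale, at 2.49 and 6.57 with the protein-coding sum, 4.18 and 3.69 with the median ratio and 28.3 and 3.96 with the total FPKM. A few genes carried the sum. In testis Dnajc15, Dnajb3, Dnajb8, Dnajb6 and Dnajc5b held 55.1% of it, and without these 5 genes the testis sum was 2.19 times the brain sum and 3.05 times the liver sum. In brain the 5 highest were Dnaja1, Dnajc15, Dnajc7, Dnaja2 and Dnajc8, with 46.0%, and in liver Dnaja1, Dnajb11, Dnajc15, Dnaja2 and Dnajb9, with 54.1%. The median member stood at 12.8 FPKM in brain and 4.92 in liver, with 25.5 in testis. Members at 100 FPKM or more numbered 2 in brain and 1 in liver, with 13 in testis, where 2.54%, 2.30% and 5.37% of protein-coding genes reached that level.

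**Figure D2:**
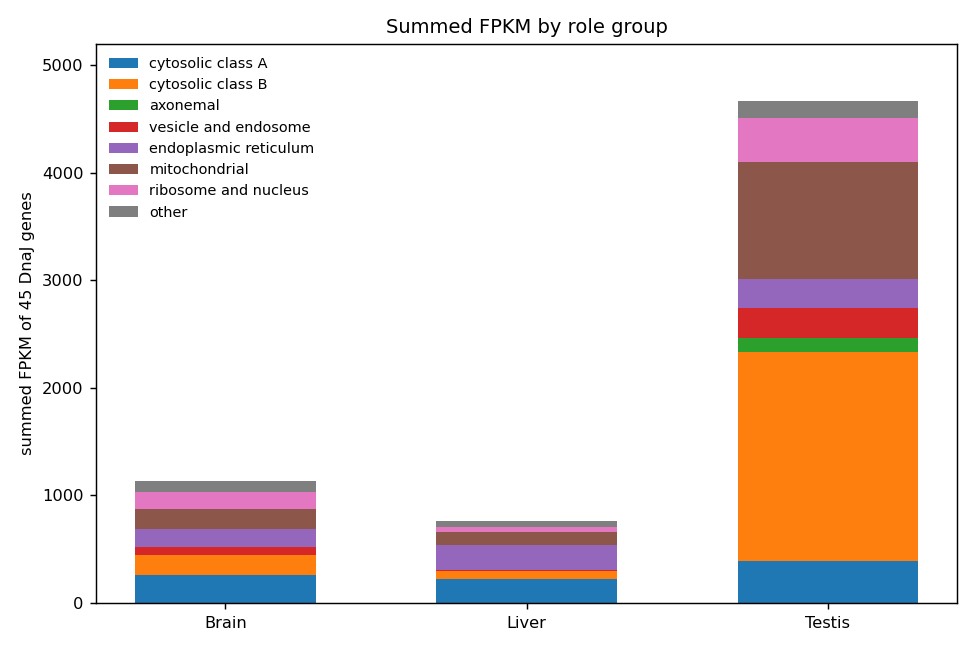
Summed FPKM of the 45 DnaJ genes in each library, split by role group (linear axis from 0). The testis bar reaches 4667 FPKM against 1137 in brain and 767 in liver, and cytosolic class B genes form 41.6% of this bar, 16.0% of the brain bar and 9.23% of the liver bar.

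The make-up of the family by class differed between the organs. Class A genes held 24.8%, 32.4% and 8.86% of the family sum of brain, liver and testis. Class B genes held 25.4%, 28.4% and 48.5% in the same order, and class C genes 49.8%, 39.2% and 42.6%. These shares are free of the scale of a library, since each is a part of its own sum.

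To set the members against the whole table, a gene was called higher or lower where log2(FPKM + 1) differed by at least 4-fold and the authors' intervals did not overlap. The 3 pairs of organs share libraries and are not independent of each other, and with 1 library a group these calls describe the libraries. Between testis and brain, 12 of the 45 members were called higher in testis (26.7%) and 3 lower (6.67%), against 14.2% and 10.4% of all protein-coding genes. Among protein-coding genes at 1 FPKM in some library the shares were 19.1% and 14.0%. The 12 were Dnajb1, Dnajb3, Dnajb4, Dnajb7, Dnajb8, Dnajb13, Dnajc2, Dnajc4, Dnajc5b, Dnajc5g, Dnajc15 and Dnajc19. The 3 lower members were Dnajb5, Dnajc6 and Dnajc12. The median difference of the members was 0.72 on the log2 scale and that of protein-coding genes was 0. With the protein-coding sum the split was 8 higher and 4 lower, with Dnajb1, Dnajb4, Dnajc4 and Dnajc19 no longer called. With the total FPKM it was 35 and 1. Protein-coding genes had 11.6% higher and 15.6% lower on the first scale, and 33.8% and 1.93% on the second. Just inside the limit stood Dnajc4 at 2.03 and Dnajc12 at -2.05, and just outside it Dnajc9 at 1.92 and Dnajc5 at -1.95.

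Between testis and liver, 19 members were called higher in testis (42.2%) and 1 lower (2.22%), against 20.2% and 5.96% of protein-coding genes, or 27.1% and 8.01% of those at 1 FPKM in some library. The 19 were Dnajb1, Dnajb3, Dnajb4, Dnajb6, Dnajb7, Dnajb8, Dnajb13, Dnajb14, Dnajc2, Dnajc4, Dnajc5b, Dnajc5g, Dnajc7, Dnajc9, Dnajc15, Dnajc18, Dnajc21, Dnajc27 and Dnajc28. Dnajc22 was the member called lower. The median difference was 1.64 for the members, 0.23 for protein-coding genes and 0.77 for protein-coding genes at 1 FPKM in some library. Scaling by the median ratio, which moves the median of those genes by -0.49, left 16 members higher and 2 lower. Of all protein-coding genes 16.5% were then higher and 8.21% lower. Dnajc7, Dnajc21 and Dnajc28 lost the call with the median ratio and also with the total FPKM.

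Between brain and liver, 5 members were called higher in brain (11.1%) and 1 lower (2.22%), against 13.7% and 4.55% of protein-coding genes, or 18.4% and 6.12% of those at 1 FPKM in some library. Dnajb5, Dnajc6, Dnajc9, Dnajc18 and Dnajc27 were higher in brain, and Dnajc22 was higher in liver. The median difference was 0.81 for the members, 0.30 for protein-coding genes and 0.69 for protein-coding genes at 1 FPKM in some library. The split was 4 higher and 3 lower with the median ratio, and 2 higher and 19 lower with the total FPKM. Of protein-coding genes, 10.2% and 6.16% were called so with the median ratio, and 3.16% and 24.1% with the total FPKM. Dnajc9 lost its call on both scales, and Dnajb5 and Dnajc18 lost theirs with the total FPKM. Over the 3 pairs, 24 members were called in at least 1 pair (53.3%), against 38.7% of protein-coding genes and 52.0% of those at 1 FPKM in some library. The members' share was thus near that of expressed genes.

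**Figure D3:**
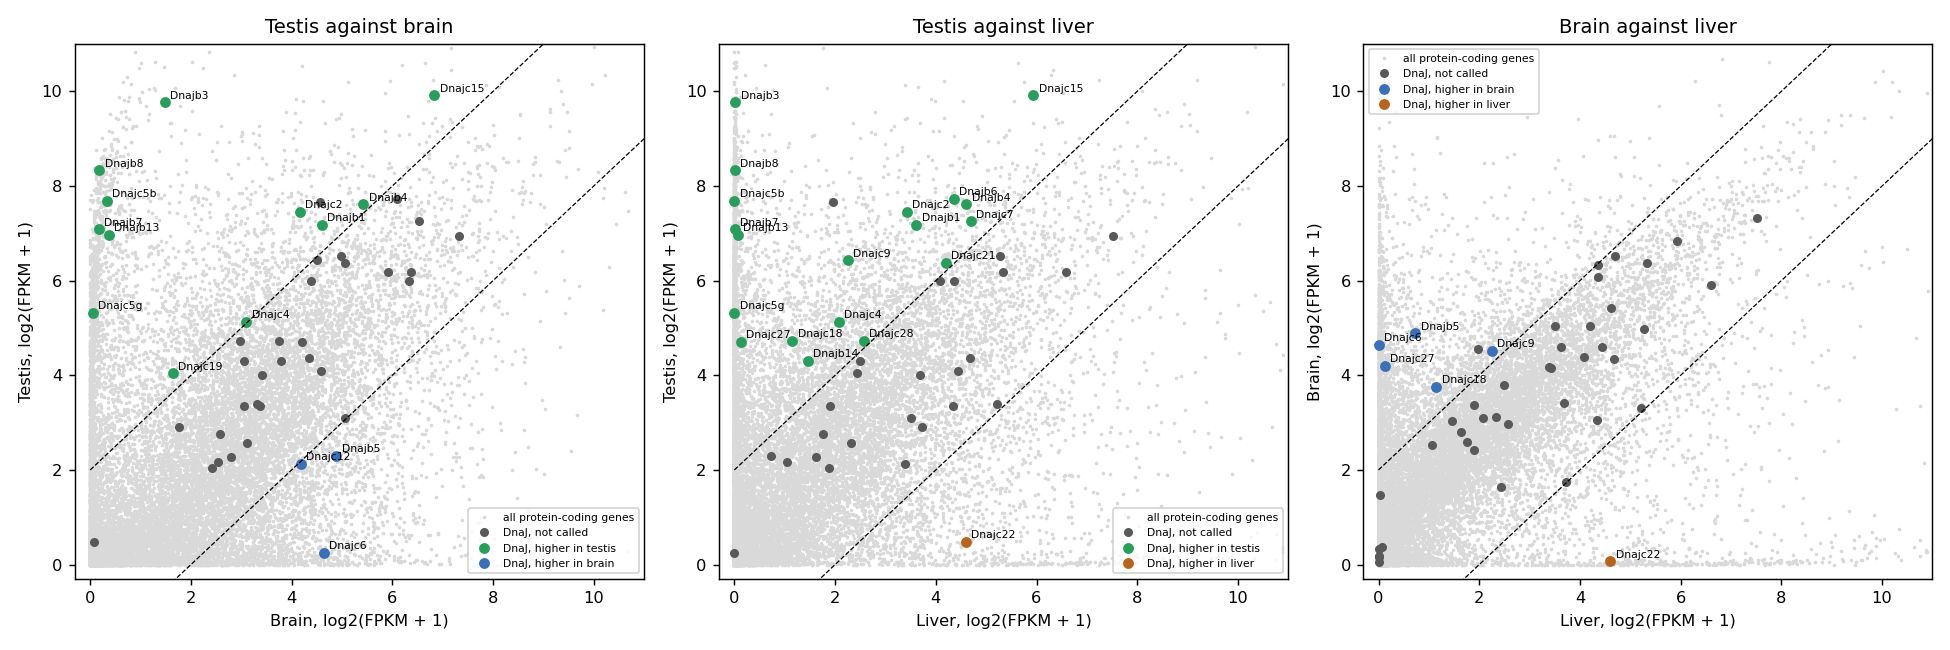
Level of each DnaJ gene in a pair of organs as log2(FPKM + 1), over all protein-coding genes in grey, with dashed lines at a 4-fold difference. Coloured points are the members called higher or lower, 12 and 3 for testis against brain, 19 and 1 for testis against liver, and 5 and 1 for brain against liver.

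The cytosolic class A genes serve the general folding of proteins with HSP70, and neither Dnaja1 nor Dnaja2 was called in any pair. Among protein-coding genes at 1 FPKM in some library, 52.0% were called in some pair. Dnaja4 could not be called by the rule, since its lower bound was 0 in each library. Dnaja1, whose product carries a farnesyl group, stood at 159, 182 and 122 FPKM in brain, liver and testis, and it was the highest member in brain and in liver. Dnaja2, which serves protein refolding, stood at 81.4 FPKM in brain and 39.1 in liver, with 71.9 in testis. The highest of the 3 values was 1.49 times the lowest for Dnaja1 and 2.08 times for Dnaja2. Dnaja4, a further cytosolic class A protein, was listed at 22.6 FPKM in brain and 2.91 in liver, with 200.2 in testis, and all 3 estimates were marked as failed. Its testis value lies above its own upper bound of 101.6 FPKM, and its exons overlap those of Wdr61 on the other strand. Without Dnaja4 the testis sum of the family was 4.01 times that of brain and 5.85 times that of liver.

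The cytosolic class B genes act with HSP70 on unfolded and aggregating proteins. Of these 8 genes, 5 were called higher in testis than in brain and 1 lower, and 6 were higher in testis than in liver. Protein-coding genes at 1 FPKM in some library had shares of 19.1%, 14.0% and 27.1%. Their median difference was 2.38 on the log2 scale against brain and 3.47 against liver. Their sum was 182, 70.8 and 1942 FPKM in brain, liver and testis. A branch of the group is formed by Dnajb6, a suppressor of polyglutamine aggregation, and its relatives Dnajb3, Dnajb7 and Dnajb8. The stretch around the J-domain loop is printed to show how alike these genes are at that site while their levels differ between organs. Each line gives 51 bases of coding sequence from GENCODE M21, 5′ to 3′, with the codons for histidine, proline and aspartate in capitals, at codon 31 in all 4.
Dnajb6: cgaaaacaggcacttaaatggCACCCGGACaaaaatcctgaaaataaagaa
Dnajb3: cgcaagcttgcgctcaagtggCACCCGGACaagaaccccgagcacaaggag
Dnajb7: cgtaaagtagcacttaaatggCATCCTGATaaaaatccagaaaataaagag
Dnajb8: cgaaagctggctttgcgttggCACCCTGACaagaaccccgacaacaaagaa

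Over the aligned coding sequence, Dnajb6 was 69.2% identical to Dnajb3, 71.7% to Dnajb7 and 65.4% to Dnajb8. Dnajb6 was broad, at 212 FPKM in testis, with 66.8 in brain and 19.4 in liver, and was called higher in testis than in liver. Dnajb3, known from male germ cells, stood at 871 FPKM in testis (bounds 863 to 878), against 1.79 in brain (1.45 to 2.13) and 0.0152 in liver, where the lower bound was 0. It was the second of the 45 members in testis and the 39th in brain. Dnajb8, also a suppressor of aggregation, stood at 320 FPKM in testis (316 to 325), against 0.135 in brain and 0.00786 in liver. Dnajb7 stood at 135 FPKM in testis (132 to 137), against 0.121 in brain and 0.00627 in liver. The 3 relatives of Dnajb6 were thus high in the testis library and near 0 in the liver library.

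Dnajb3, Dnajb7 and Dnajb8 each have a single coding exon, while Dnajb6 has 7. On mm9, Dnajb3 lies at chr1:90101307-90102323, inside Gm20528 on the same strand and inside Ugt1a genes on the other strand. Dnajb7 lies at chr15:81237518-81238703 inside Xpnpep3, also on the other strand, and Dnajb8 at chr6:88172262-88173250. An antisense gene overlaps the exon of Dnajb8, 1700031F10Rik, at 41.5 FPKM in testis and listed at 0 in brain and liver. The libraries mark strand, and whether the quantification used it is not given in the sources used here.

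The other cytosolic class B genes are Dnajb1, its relatives Dnajb4 and Dnajb5, and Dnajb2. Dnajb1, the heat-inducible HSP40, stood at 23.3 FPKM in brain and 11.3 in liver, with 143 in testis. Dnajb4 stood at 41.8, 23.4 and 194 FPKM in brain, liver and testis. Both were called higher in testis against each other organ, 6.15-fold and 4.65-fold by FPKM over brain, and both lost the call against brain with the protein-coding sum. Dnajb5 went the other way, at 28.6 FPKM in brain and 0.664 in liver, with 3.93 in testis, and was called higher in brain than in both other organs. The relatives of Dnajb1 thus had their highest values in different organs, and Dnajb1 was 66.2% identical to Dnajb4 and 66.8% to Dnajb5. Dnajb2, a class B protein with ubiquitin-interacting motifs, was called in no pair, and its 3.15-fold and 3.92-fold higher FPKM in testis stayed under the limit.

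Dnajb13 encodes a radial spoke protein of motile cilia and flagella and is related to Dnajb1. It stood at 125 FPKM in testis (122 to 127), against 0.291 in brain (0.172 to 0.410) and 0.0510 in liver (0.0170 to 0.0851). Its coding sequence is shown beside that of Dnajb1 because the loop codons differ. The codons for histidine, proline and aspartate were found in a row in 44 of the 45 members' coding sequences, and Dnajb13 was the member without them. Capitals mark those codons at codon 32 of Dnajb1 and the aligned bases of Dnajb13, where the codon for leucine follows those for histidine and proline.
Dnajb1: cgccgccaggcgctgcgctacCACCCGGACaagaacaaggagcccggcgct
Dnajb13: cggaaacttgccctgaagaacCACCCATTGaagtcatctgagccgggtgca

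The other radial spoke genes were read from a fixed list. Of these 8 genes, 7 were called higher in testis than in brain and 7 higher than in liver. Their median difference was 3.93 and 4.86 on the log2 scale. The shares called among protein-coding genes at 1 FPKM in some library were 19.1% and 27.1%. Rsph1, a part of the spoke head, stood at 6.27, 0.159 and 1300 FPKM in brain, liver and testis. Rsph3b stood at 15.1, 10.9 and 323 FPKM and Rsph3a at 10.4, 7.21 and 225 in the same order. The exception was Rsph4a, a spoke head gene of cilia, at 0.908 FPKM in brain and 0.119 in testis. Dnajb13 is on chromosome 7 (mm9, chr7:107651527-107663469) and its exons overlap those of Ucp2 on the other strand.

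Among the genes of vesicles and endosomes, the cysteine string protein genes were split between organs. Cysteine string protein, encoded by Dnajc5, keeps the fusion machinery of synaptic vesicles folded, and Dnajc5b and Dnajc5g are its paralogs. Their loop codons are present in all 3, at codons 43, 47 and 45, and are in capitals below, from GENCODE M21 and 5′ to 3′.
Dnajc5: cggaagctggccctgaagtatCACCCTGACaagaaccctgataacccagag
Dnajc5b: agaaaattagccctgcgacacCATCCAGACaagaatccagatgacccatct
Dnajc5g: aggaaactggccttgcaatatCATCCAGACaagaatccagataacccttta

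Dnajc5 stood at 32.1 FPKM in brain (29.6 to 34.6) and 10.4 in liver, with 7.57 in testis (6.17 to 8.96), just short of a call between testis and brain. It was called lower in testis than in brain with a pseudocount of 0.1 and with the protein-coding sum. Dnajc5b stood at 206 FPKM in testis (202 to 210) and 0.252 in brain, and was listed at 0 in liver. Dnajc5g stood at 38.8 FPKM in testis (37.6 to 40.0) and 0.0388 in brain, and was also listed at 0 in liver. Both paralogs were thus below 0.3 FPKM outside testis, while Dnajc5 was above 7 FPKM in each library. Coding identity was 67.5% between Dnajc5 and Dnajc5b, 65.0% between Dnajc5 and Dnajc5g, and 70.3% between the 2 paralogs.

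Dnajc6 encodes auxilin, which recruits HSP70 to strip clathrin from vesicles in neurons. It stood at 24.0 FPKM in brain (16.4 to 31.6), was listed at 0 in liver, and had 0.186 FPKM in testis with an upper bound of 1.98 and a low-data mark. It was the member restricted to brain by a rule of at least 5 FPKM in 1 library and under 0.5 in both others, where 2.90% of protein-coding genes met that rule. Its upper bound in testis lies above 0.5 FPKM, and with OK estimates only it was left out of the comparison of testis with brain, which then had 2 members lower. Dnajc27, a Rab-like GTPase with a J domain, stood at 17.4, 0.0889 and 25.0 FPKM in brain, liver and testis, and was called lower in liver against each other organ. Dnajc13, an endosomal protein, varied little, at 4.32, 2.70 and 3.09 FPKM in brain, liver and testis. Over the 6 genes of this group, 2 were called higher and 1 lower in testis against brain, and 3 higher against liver. Among protein-coding genes at 1 FPKM in some library these shares were 19.1%, 14.0% and 27.1%.

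Proteins of the endoplasmic reticulum (ER) group lie in the ER lumen or membrane, and some work with the lumenal HSP70 BiP, others with cytosolic HSP70. All 11 genes reached 1 FPKM in each library, and 2 of them were called in some pair, against 38.4% of protein-coding genes at that level in every library. None of the 11 was called between testis and brain. Among protein-coding genes at 1 FPKM in some library, 19.1% were called higher and 14.0% lower in that pair. Dnajb11, a co-chaperone of the ER HSP70 BiP, stood at 59.1 FPKM in brain and 95.7 in liver, with 71.6 in testis. Dnajb9, which is induced by unfolded ER proteins, stood at 30.4 FPKM in brain and 37.7 in liver, with 90.8 in testis. BiP itself, encoded by Hspa5, stood at 193, 536 and 211 FPKM in the same order and was called in no pair. It was named after its values were seen.

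The calls within the ER group concerned the relatives of Dnajb12, which help remove misfolded membrane proteins. Dnajb14 stood at 7.25, 1.76 and 18.8 FPKM in brain, liver and testis, and was called higher in testis than in liver. Dnajc18 stood at 25.5 FPKM in testis, with 12.5 in brain and 1.22 in liver, and was called lower in liver against both other organs. Dnajb12 was called in no pair and its FPKM varied 1.57-fold. Also uncalled were Dnajc1, Dnajc14, Dnajc16, Dnajc25 and the disulfide reductase Dnajc10, all between 2.10 and 19.3 FPKM in every library. Coding identity to Dnajb12 was 63.3% for Dnajb14 and 63.9% for Dnajc18. Dnajc3, an inhibitor of the kinase PERK, was named after its values were seen, since it was highest in liver at 36.0 FPKM, against 8.97 in brain and 9.46 in testis. Scaled by the median ratio it was called lower in testis and in brain than in liver. Over the group 4 members were highest in liver, 5 in testis and 2 in brain, and its sum was 164 FPKM in brain and 227 in liver, with 274 in testis. The group thus made up 29.6% of the family sum in liver, 14.4% in brain and 5.88% in testis.

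Mitochondrial J proteins serve protein import, folding in the matrix and the inner membrane, and 3 of 7 were called higher in testis than in brain. The share among protein-coding genes at 1 FPKM in some library was 19.1%. Dnajc15, an inner membrane protein of the import machinery, was the highest member in testis, at 963 FPKM (952 to 973), with 113 in brain (110 to 117) and 60.3 in liver (58.4 to 62.1). It alone held 20.6% of the family sum in testis, and without it the testis sum was 3.62 times that of brain. Dnajc4, whose function is little known, stood at 7.59, 3.21 and 34.1 FPKM in brain, liver and testis. Dnajc28, likewise little known, stood at 25.4 FPKM in testis, with 6.88 in brain and 4.92 in liver, and was called against liver only.

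The remaining mitochondrial members differed little or had weak estimates. Dnaja3, the class A protein of the matrix, stood at 19.4 FPKM in brain and 24.7 in liver, with 19.7 in testis. Dnajc11, of the outer membrane and cristae junctions, stood at 23.0, 20.8 and 15.9 FPKM in brain, liver and testis. Dnajc30 was marked as failed in brain and liver and was called in no pair. Dnajc19, the J protein of the import motor and a relative of Dnajc15 with 70.3% coding identity, stood at 15.4 FPKM in testis, with 2.11 in brain and 4.38 in liver. Its liver estimate was marked as failed, with an upper bound of 10.03. Its call against brain stands beside a near-identical copy at higher FPKM, described below. Of 6 other genes of the import motor and channel, none was called between testis and brain. In that pair 19.1% of protein-coding genes at 1 FPKM in some library were higher in testis and 14.0% lower. Beside a share of 27.1% of protein-coding genes at 1 FPKM in some library, 2 were higher in testis than in liver. Those were Pam16, the partner of the J protein in the motor, at 40.5, 17.4 and 149 FPKM in brain, liver and testis, and the channel gene Timm17a at 51.6, 14.0 and 59.2 FPKM.

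Of the 6 genes of the ribosome and nucleus, 1 was called higher in testis than in brain and 3 higher than in liver. The shares among protein-coding genes at 1 FPKM in some library were 19.1% and 27.1%. Dnajc2, a ribosome-associated protein that works on nascent chains, stood at 16.9 FPKM in brain and 9.77 in liver, with 174 in testis. Dnajc9, a histone co-chaperone, stood at 21.8, 3.76 and 85.3 FPKM in brain, liver and testis, and was also called higher in brain than in liver. That call between brain and liver was lost with the median ratio. Dnajc21, a ribosome biogenesis factor, stood at 82.3 FPKM in testis, with 32.1 in brain and 17.3 in liver. These 3 had their highest value in testis and their lowest in liver. Dnajc8, associated with splicing, stood at 79.2 FPKM in brain and 19.5 in liver, with 62.8 in testis, and was called in no pair. Dnajc17 and Dnajc24 were low, between 1.08 and 5.75 FPKM in every library.

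A group of 3 genes has other or mixed roles. Dnajc7, a cytosolic co-chaperone with tetratricopeptide repeats, stood at 91.1 FPKM in brain and 151 in testis (148 to 154). Its liver value of 24.8 FPKM had a low-data mark and an upper bound of 144.3, so its call against liver rests on a weak estimate and was absent when estimates not marked OK were left out. Dnajc12, a co-chaperone of aromatic amino acid hydroxylases, stood at 17.2, 9.46 and 3.38 FPKM in brain, liver and testis. It was called lower in testis than in brain, and lost the call with the median ratio. Dnajc22, a membrane protein with a J domain, stood at 23.3 FPKM in liver (22.6 to 23.9), 0.0484 in brain and 0.395 in testis. It was the member restricted to liver, where 1.47% of protein-coding genes were restricted.

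Restriction to testis was met by 5 members, Dnajb7, Dnajb8, Dnajb13, Dnajc5b and Dnajc5g, which is 11.1% of the family against 6.11% of protein-coding genes. All members reached 1 FPKM in some library. Of the 14973 protein-coding genes at that level 1230 were restricted, a larger share than 6.11%. Dnajb3 did not meet the rule, with 1.79 FPKM in brain against a limit of 0.5. It was added as the sixth by the alternative measure, a tau of at least 0.9, where tau is an index of how far a gene is confined to 1 library. These 6 genes held 36.3% of the family sum in testis and 0.231% of that in brain. Without them the testis sum was 2.62 times the brain sum and 3.88 times the liver sum.

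The brain values of the 6 genes were set beside those of the germ cell markers, which were above 0 in brain. As a percentage of the testis level, the brain level was 0.0420% for Dnajb8, 0.0898% for Dnajb7, 0.0999% for Dnajc5g, 0.123% for Dnajc5b, 0.205% for Dnajb3 and 0.234% for Dnajb13. For the 8 haploid germ cell markers it ranged from 0.0349% to 0.0940%, with a median of 0.0653%, and for 4 meiotic markers from 0.109% to 0.534%. The 6 values thus ran from within the haploid range to within the meiotic range. Whether these brain values share a source with those of the markers was not tested. Radial spoke genes had a median of 4.65%. The 5 genes of the ciliated ependyma list ranged from 2.94% to 1011%, with a median of 140%.

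**Figure D4:**
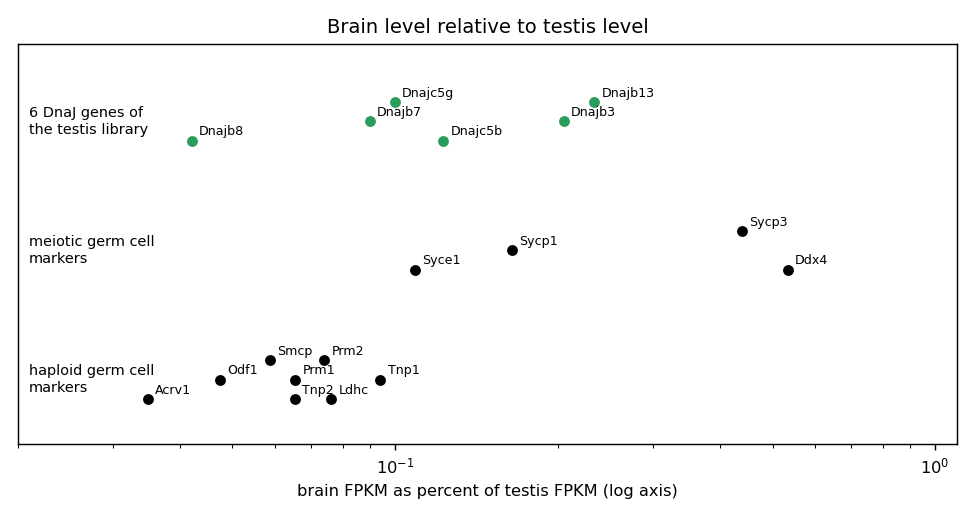
Brain FPKM as a percentage of testis FPKM on a log axis, for Dnajb3 and the 5 testis-restricted DnaJ genes, 4 meiotic and 8 haploid germ cell markers; heights within a row only separate the points. The DnaJ genes lie between 0.0420% and 0.234%, and the haploid markers between 0.0349% and 0.0940%.

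Processed copies of some DnaJ genes were listed at levels as high as the gene or higher. In 5 members, the coding sequence matched another locus at 95% identity or more over at least 150 bases. Dnaja1 had 3 such processed pseudogenes, of 97.1% to 99.4% identity, which summed to 500 FPKM in brain and 572 in liver, with 407 in testis. Dnajb6 had 4 in the tables, at 555, 199 and 1345 FPKM in the same order. In both families the copies and the gene ranked the 3 organs alike, and whether reads were divided between them was not tested.

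For Dnajc19, called higher in testis than in brain at a log2 difference of 2.40, the copy stood far above the gene. Its processed pseudogene Dnajc19-ps is 99.1% identical over 348 bases and stood at 72.7 FPKM in testis, with 64.2 in brain and 110 in liver. Gene and copy summed to 66.3 FPKM in brain and 115 in liver, with 88.1 in testis. The log2 difference of that sum was 0.41 for testis against brain and -0.38 for testis against liver. Whether reads were divided between the 2 loci was not tested. For Dnajc5b, the pseudogene Gm14868 of 216 bases is identical to part of the gene, and stood at 1404 FPKM in testis, 2.40 in brain and listed at 0 in liver. Dnajc17 had a copy of 97.0% identity at 4.38, 0.804 and 3.51 FPKM, close to the gene's own 4.77, 1.08 and 3.48. Without the 5 members, 10 of 40 were called higher and 3 lower in testis against brain, and 17 and 1 against liver.

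**Figure D5:**
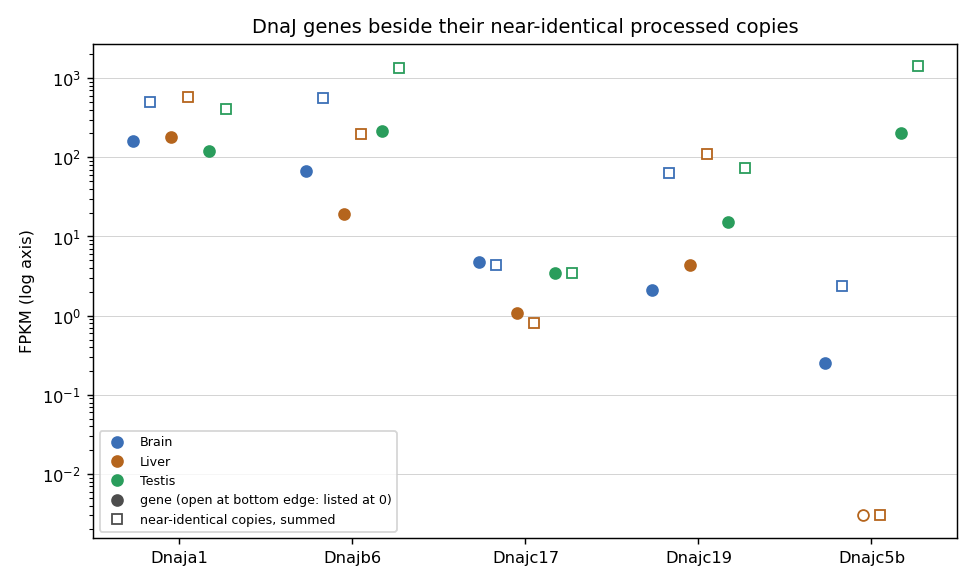
FPKM of the 5 DnaJ genes with near-identical processed copies (filled circles) and the sum of their copies (open squares) in brain, liver and testis, on a log axis. The copy of Dnajc19 stands at 64.2 to 110 FPKM where the gene is at 2.11 to 15.4, and the copies of Dnajb6 follow the gene with the highest value in testis.

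The promoters of the testis-restricted members had a lower median ratio of observed to expected CG pairs than those of the others. RefSeq windows of 250 bases before to 50 after the start site (GRCm38.p6) were matched for 37 of the 45 members. The observed over expected count of CG pairs was 0.0790 to 0.631 in the 4 matched testis-restricted members, with a median of 0.411. It was 0.466 to 1.15 in the 33 others, with a median of 0.854, and the median of 15556 protein-coding genes was 0.611. The ranges overlap, and with 4 genes this is a description. The 100 bases before the start site are printed for the 4 and for Dnaja2 and Dnajb11, which were called in no pair, 5′ to 3′ on the gene's strand, with CG pairs in capitals. The windows lie at chr15:81408274-81408373 (minus strand) for Dnajb7, chr6:88222168-88222267 (plus) for Dnajb8, chr7:100514816-100514915 (minus) for Dnajb13 and chr5:31108219-31108318 (plus) for Dnajc5g. Those of Dnaja2 and Dnajb11 lie at chr8:85555362-85555461 (minus) and chr16:22857745-22857844 (plus).
Dnajb7: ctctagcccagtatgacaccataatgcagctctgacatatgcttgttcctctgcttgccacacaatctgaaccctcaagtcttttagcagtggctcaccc
Dnajb8: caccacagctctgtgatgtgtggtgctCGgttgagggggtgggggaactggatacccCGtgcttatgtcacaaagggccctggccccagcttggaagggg
Dnajb13: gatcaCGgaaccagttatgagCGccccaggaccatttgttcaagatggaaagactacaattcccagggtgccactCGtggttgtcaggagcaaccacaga
Dnajc5g: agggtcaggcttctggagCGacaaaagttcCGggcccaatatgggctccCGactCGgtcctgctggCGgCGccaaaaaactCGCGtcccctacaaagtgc
Dnaja2: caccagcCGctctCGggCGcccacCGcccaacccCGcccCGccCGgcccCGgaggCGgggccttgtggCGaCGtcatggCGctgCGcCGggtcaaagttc
Dnajb11: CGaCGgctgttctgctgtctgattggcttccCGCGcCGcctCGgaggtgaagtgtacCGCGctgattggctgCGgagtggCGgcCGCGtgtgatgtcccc

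In these stretches Dnajb7 held no CG pair, Dnajb8 held 2, Dnajb13 held 3 and Dnajc5g held 8, against 14 in Dnaja2 and 12 in Dnajb11. By the observed over expected count of the full window, Dnaja2 and Dnajb11 both lay above the median of the members not restricted to testis. Other members called in no pair lay below that median, such as Dnajc1 and Dnajc24. The contrast with Dnaja2 and Dnajb11 is thus larger than one with a typical member would be. Dnajb3, which did not meet the restriction rule, had an observed over expected value of 0.732.

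The partners of the DnaJ proteins were read from lists of HSP70 genes, exchange factors and heat shock factors. Of 8 HSP70 genes, 2 were called higher and 1 lower in testis against brain, and the same counts held against liver. Protein-coding genes at 1 FPKM in some library had shares of 19.1% and 14.0% against brain, and 27.1% and 8.01% against liver. Hspa2, known for its role in meiosis, stood at 13.3, 0.512 and 432 FPKM in brain, liver and testis. Hspa1l, a germ cell HSP70, stood at 0.948, 0.979 and 273 FPKM in the same order. The constitutive Hspa8 went the other way, at 1380, 1039 and 146 FPKM in brain, liver and testis. The sum of the 8 genes was 1675 FPKM in brain and 1733 in liver, with 1171 in testis, so that the summed DnaJ level was above the summed HSP70 level in the testis library and below it in the other 2.

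Exchange factors release the client by removing ADP from HSP70. Of these 13 genes, 3 were called higher and 1 lower in testis against brain, and 3 higher against liver. Among protein-coding genes at 1 FPKM in some library the shares were 19.1%, 14.0% and 27.1%. Bag5 stood at 61.0, 16.9 and 1185 FPKM in brain, liver and testis. Hspa4l, an HSP110 relative, stood at 26.1, 9.09 and 425 FPKM, and Sil1, an exchange factor of BiP, at 10.1, 24.0 and 71.2. Bag1, at 71.4, 43.0 and 287 FPKM, was called against liver only. Hsph1, a relative of Hspa4l, was the gene called lower, at 170, 75.5 and 23.8 FPKM in brain, liver and testis. Of 5 heat shock factor genes, Hsf5 and Hsfy2 were called higher in testis against both organs, at 41.5 and 62.5 FPKM there and at most 0.103 FPKM in brain. Hsf4 was called lower in testis than in brain, at 0.0536 and 7.59 FPKM. Of 4 J-domain genes with other names, Hscb, which serves iron-sulphur cluster assembly, was called higher in testis than in liver, at 20.9 and 3.60 FPKM. Near-identical copies of these partner genes were not examined.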

How the data were processed

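The authors sequenced polyadenylated RNA in strand-specific libraries, as 76-cycle single-end reads in 3 lanes per sample, at about 114 M reads a sample on average, per the labels' protocols. Alignment tools named in the submitters' processing notes are TopHat 1.4.0 and Bowtie 0.12.5, beside Cufflinks 2.0.0 and the mm9 build. The values used are the deposited FPKM per gene with lower and upper bounds, whose level the file headers do not name and which were taken as 95%. Each member has 1 locus in the tables, and coordinates of genes are on mm9.

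From these, log2(FPKM + 1) was compared between libraries, a scale that understates differences of low genes. Depth was read as fragments implied by the interval widths. An exact 0 is given as listed at 0, with no fold. Failed estimates were kept at their listed value. GENCODE M21 was joined by identifier for symbols, coding sequences and overlaps, and promoters came from RefSeq. Python 3.11.15, pandas 2.3.3 and Biopython 1.88 were used. The calling rule was run on simulated data with planted changes well above the 4-fold limit. Interval widths were the only spread there, so that run checks the code and holds no spread between animals. No test across samples was run.

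The members, their 8 role groups and the 15 lists (6 of pathways, 9 of markers, 88 of 90 entries matched) were chosen with earlier results of these data known. Values are given for members called in some pair and the 2 highest of a role group in any library, and for the 3 highest called genes of a pathway list. Genes outside this rule, such as Rsph4a, Hsph1, Dnajc3, Hspa5, Dnajc17 and the copies, were named after their values were seen. Alternatives changed the pseudocount, the scaling, the fold and FPKM minimums, the use of intervals, failed estimates, low values and the measure of restriction. Leaving out members with near-identical copies was added after seeing the data.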

Additional observations from a re-analysis of the deposited data

How the results depend on the processing

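Of the summary values under all alternatives, 83 stayed within a tolerance and 31 moved, where the tolerance was 1.5 times the main value for a count and the median half-width of the members' intervals for a median. Within it, members higher in testis than in brain went from 12 to 8 with the protein-coding sum. Those higher than in liver went from 19 to 28 with a 2-fold minimum. Protein-coding genes went from 14.2% to 11.6% and from 20.2% to 32.5% in the same settings. No call of a member turned its direction under the alternatives run. With a pseudocount of 0.1 or 0.01 the median difference was 1.02 or 1.03 for testis against brain, 1.96 or 2.004 for testis against liver, and 1.04 or 1.07 for brain against liver, on log2 scales. Brain against liver then had 8 members higher and 2 lower, or 13 and 3. Of protein-coding genes, 24.6% were then higher and 6.38% lower, or 30.5% and 7.42%. Their median was 0 for testis against brain and 0.70 or 1.15 for testis against liver. For brain against liver it was 0.70 or 1.02. With the protein-coding sum the median was 0.29 for testis against brain, and for brain against liver it was 1.57 with 12 members higher. The medians of protein-coding genes were then -0.10 and 0.76, with 22.0% higher in brain than in liver. With the median ratio the median was 1.17 and 2 members were lower for testis against liver. Brain against liver had a median of 0.16 and 3 lower. Protein-coding genes then had medians of 0.06 and 0.05, with 8.21% and 6.16% lower. With the total FPKM, testis against brain had 35 higher, 1 lower and a median of 3.03. Testis against liver had 2 lower and a median of 1.32. Brain against liver had 2 higher, 19 lower and a median of -1.70, which turned its sign. The shares of protein-coding genes were 33.8% and 1.93%, then 9.03%, then 3.16% and 24.1%, with medians of 0.99, 0.13 and -0.41. A 2-fold minimum gave 20 higher for testis against brain, 4 lower for testis against liver, and 15 higher and 4 lower for brain against liver. Of protein-coding genes, 22.4%, 10.6%, 29.3% and 7.65% met these calls in that order. At 10 FPKM, 24 members were detected in brain and 20 in liver. The cause of these shifts was not tested. At 0.1 FPKM, 45 members were detected in testis, with 43 in brain and 37 in liver. The number restricted to testis was 5 under both scalings tried for it, 5 with a limit of 1 FPKM in the other libraries, and 6 by tau. Calls from size alone added Dnaja4, whose estimates failed. No paired analysis was possible because each organ has 1 library. Depth limits the low values: the brain levels of the testis-restricted genes rest on few fragments, with half-widths of 40.8% to 100% of the value.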

Other observations

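Promoter windows of the 37 matched members were searched on both strands for elements known from stress genes and general promoters, as a description of letters only. The heat shock element, searched as 3 alternating GAA and TTC units with 2 bases between units, was in 1 member, Dnajb6, against 0.559% of protein-coding genes. The heat-inducible Dnajb1 did not hold it in its window. The ER stress element, searched as CCAAT and CCACG with 9 bases between them and thus holding a CCAAT box, was in the ER co-chaperone gene Dnajc3, against 0.154%. The cyclic AMP response element, TGACGTCA, was in Dnajc27, against 2.74%. The CCAAT box was in 15 of 37 members (42.0% of protein-coding genes) and the TATA box, TATAAA, in 2 (13.5%), Dnajc19 and Dnajc24. In the window of Dnajb6 the heat shock letters lie 46 bases before a start site and read, in capitals, as follows.
Dnajb6 element: GAATCTTCCGGAA

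A single coding exon was found in 4 of the 45 members, Dnajb3, Dnajb7, Dnajb8 and Dnajc30, which is 8.89% against 13.8% of protein-coding genes. Of the 5 testis-restricted members 2 were of this kind, against 194 of 1229 testis-restricted protein-coding genes. Exons of 17 members overlap a gene on the other strand and those of 5 a gene on the same strand, so values of these members may include reads of a neighbour, which was not tested. Among cell type markers, Aif1, used for microglia, stood at 375 FPKM in testis and 2.76 in brain, while Csf1r stood at 1.44 and 9.49. Of the other marker lists, 4 of 4 meiotic genes were called higher in testis against each of the other organs. The same held for 2 of 5 Sertoli and Leydig genes and 2 of 5 genes of ciliated ependyma. Of protein-coding genes at 1 FPKM in some library, 19.1% were called higher against brain and 27.1% against liver. A further gene of the ependyma list, Rarres2, was called lower in testis than in liver. Of 3 matched blood and endothelial genes none was called higher in testis, and the globin gene Hba-a1 was called lower against each organ.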
